A study of Mus musculus with 2 samples.

Results

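The STAT transcription factors and the SOCS-family inhibitors that restrain them were followed in T cells of a wild-type mouse and of a mouse bred to lose the DNA demethylases TET2 and TET3 in Treg cells. The genes were taken by name: 6 STAT genes (Stat2, Stat3, Stat4, Stat5a, Stat5b and Stat6) and 3 inhibitor genes (Socs1, Socs3 and Cish), all 9 of which were among the 32285 genes of the count matrices. Single-cell RNA was read from TCRβ+ cells, which carry the αβ T cell receptor, of spleen and of cervical and inguinal lymph nodes pooled within each mouse at 14 weeks of age. The control was 1 Foxp3Cre WT mouse. The other was 1 Foxp3-Cre Tet2/3 fl/fl mouse of the DKO-severe class, in which Cre made from the Foxp3 locus deletes both floxed Tet genes, and which the study set apart from a moderate class by leukocyte numbers in spleen and lymph nodes. Both mice carry the Cre. Cells that expressed Foxp3 earlier and then lost it keep the deletion, and the Foxp3-negative cells of the DKO-severe mouse can hold such cells together with cells that never expressed Cre.

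Cytokine receptors of this pathway have no kinase of their own and rely on bound JAK kinases. Once a cytokine brings the chains together, the JAKs phosphorylate STAT proteins, which pair, enter the nucleus and switch on target genes. Among those targets are Socs1, Socs3 and Cish, whose products block the receptors or the JAKs and so close a feedback loop. In T cells IL-2 and STAT5 sustain Foxp3 in Treg cells, IL-12 and STAT4 drive type 1 helper cells, IL-4 and STAT6 drive type 2 helper cells, and IL-6 or IL-21 and STAT3 favour follicular helper and Th17 cells.

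The genes were read in 4 gates set by detected transcripts of CD3 genes (Cd3d, Cd3e or Cd3g) and of marker genes. Cells with Cd4, without Cd8a and Cd8b1, formed the Cd4 Foxp3-negative gate (1675 WT and 2407 DKO-severe cells) or, with a Foxp3 transcript, the Foxp3-positive gate (64 and 331 cells). Cells with Cd8a or Cd8b1 and no Cd4 formed the Cd8 gate (3052 and 1735 cells). Cells with Zbtb16, the factor of natural killer T and related cells, and no Foxp3 formed the innate-like gate (105 and 220 cells), of which 20 and 87 were also in the Cd4 Foxp3-negative gate and 12 and 15 in the Cd8 gate. In the Foxp3-positive gate, which Foxp3 sets, all 6 Treg markers examined were detected in both genotypes, as they were in the Cd8 gate. Il2ra was 490.1 CPM in WT against 163 CPM in DKO-severe Foxp3-positive cells, and Lrrc32 was 82.8 and 4.87 CPM. Foxp3 (200 and 120 CPM) and Nrp1 (272 and 129 CPM) were also lower in DKO-severe cells, and Ctla4 was nearly level (442 and 435 CPM). Ikzf2, the most abundant, was higher (2235 and 2623 CPM). In the innate-like gate, which Zbtb16 sets, all 8 innate-like markers were detected in both genotypes. The same held in the Cd4 Foxp3-negative and Cd8 gates, so detection alone does not identify the innate-like gate. In innate-like cells Zbtb16 was 476 CPM in WT against 217 CPM in DKO-severe cells. Also lower in DKO-severe cells were Cxcr6 (534 and 198 CPM), Klrb1c (164 and 106 CPM), Klrd1 (136.5 and 66.0 CPM) and Il18rap (101 and 71.5 CPM). Il2rb (220.5 and 368 CPM), Nkg7 (374 and 399 CPM) and Ccl5 (1260 and 1651 CPM) were higher. Lyz2, a monocyte or macrophage marker, stood above Zbtb16 in this gate, at 927 and 1120 CPM.

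Levels are CPM, unique transcripts (UMIs) per 1000000, pooled across a gate, and differences are log2 ratios of CPM, DKO-severe over WT. In Foxp3-positive cells, where Cre is made, the targeted genes stood at 56.6 and 71.6 CPM (Tet2) and 89.3 and 85.2 CPM (Tet3) in WT and DKO-severe cells. Because the sources used here do not name the deleted exons and the assay counts 3′ ends, these levels do not check the deletion. With 1 mouse per genotype no test between genotypes was possible. The 95% intervals, exact Poisson for a level and exact conditional for a ratio, cover counting error only, not variation between cells or mice. The median depth was 5616 UMIs per retained WT cell and 8066 per DKO-severe cell, so shares of cells with a UMI were taken after thinning every cell to 3800 UMIs. Granulocyte transcripts moved with genotype in every gate: all 6 of their markers were higher in DKO-severe cells, and their sum lay between 76.3 and 85.2 CPM in WT gates and between 1408 and 3818 CPM in DKO-severe gates. Monocyte or macrophage markers (6 of 6 higher in each gate) summed to 116 to 1315 CPM in WT gates and 238 to 1854 CPM in DKO-severe gates. The highest sum of each genotype was that of the innate-like gate. Proliferation markers (6 of 6 higher in each gate) summed to 117 to 566 CPM in WT and 272 to 1012 CPM in DKO-severe gates. B cell markers summed to 417 to 601 CPM in WT gates and 262 to 827 CPM in DKO-severe gates, with no shared direction. With cells holding 2 or more UMIs of 12 B cell, monocyte and granulocyte markers left out, which kept 67.3% to 90.6% of the cells of a gate, all 36 log2 ratios of the 9 genes stayed within their intervals.

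By position (GENCODE M21, GRCm38, the build that mm10 names), Stat5b (chromosome 11, 100780731 to 100850724, minus strand), Stat5a (100859351 to 100885169, plus strand) and Stat3 (100885098 to 100939540, minus strand) stand side by side. Stat5b and Stat5a are 8626 bases apart, and the ends of Stat5a and Stat3 overlap on opposite strands. STAT5A and STAT5B are near-identical proteins, so a read from a stretch that the paralogs share may not be placed in either gene. Stat4 is on chromosome 1 (51987148 to 52107189, plus strand), Stat2 and Stat6 on chromosome 10 (128270559 to 128292849 and 127642986 to 127660957, plus strand), Cish on chromosome 9 (107296026 to 107302784, plus strand), Socs1 on chromosome 16 (10782240 to 10785536, minus strand) and Socs3 on chromosome 11 (117966079 to 117970047, minus strand).

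STAT dimers are known to bind the palindrome TTCNNNGAA. In RefSeq windows of 250 bases before to 50 after an annotated start (GRCm38.p6), these letters were found for 2 of the 9 genes, Cish and Socs3, and in 9.55% of all 27025 genes with such windows. The matches, in capitals, are shown because both genes are textbook STAT targets, and Cish had the highest ratio of the set in 3 of the 4 gates. The Cish stretch (chr9:107296654-107296683, plus strand) holds 2 matches, of which the first begins at the annotated RefSeq start, 250 bases into the window. The Socs3 stretch (chr11:117969502-117969530, minus strand) holds 1, beginning 154 bases before the RefSeq start. Both stretches lie inside the longer GENCODE genes.
Cish: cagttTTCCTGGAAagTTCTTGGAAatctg
Socs3: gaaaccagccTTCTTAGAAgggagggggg
A match of letters is not evidence that a STAT protein binds there, and a window without them says nothing about sites elsewhere.

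Of the 9 genes, Stat5b was lower in DKO-severe than in WT cells in all 4 gates, and Cish was higher in 3 gates and lower in the fourth, the Foxp3-positive gate. Socs1 was 3.56-fold lower in Foxp3-positive DKO-severe cells, and 1.21-fold and 1.43-fold higher in Cd4 Foxp3-negative and Cd8 cells. With gates and counts at 3800 UMIs, the Foxp3-positive log2 ratios were -0.26 for Socs1 and 0.02 for Cish, both with intervals that included 0. Stat4 was 1.59-fold higher in Cd4 Foxp3-negative cells. Stat2, Stat5a and Stat6 had intervals that included 0 in every gate.

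Counted at a 2-fold difference, none of the 9 genes passed in the Cd4 Foxp3-negative gate, where 11.3% of all genes at a mean of 20 CPM or more did (7.98% higher and 3.3% lower). That mean was reached by 8, 9, 8 and 8 of the 9 genes in the Cd4 Foxp3-negative, Foxp3-positive, Cd8 and innate-like gates, with Cish below it in the Cd4 Foxp3-negative and Cd8 gates and Socs3 in the innate-like gate, and all 9 are counted here whatever their mean. In Foxp3-positive cells 3 of 9 passed, all lower in DKO-severe cells (Socs1, Cish and Stat5b), against 5.8% of all genes lower and 8% higher by that fold (13.8% in all). In Cd8 cells 1 passed (Cish, higher), against 1.71% of all genes higher and 0.872% lower (2.58% in all), and in innate-like cells 2 passed (Cish and Socs3, both higher), against 5.01% higher and 1.65% lower (6.66% in all). These shares leave out genes under a mean of 20 CPM, such as Cish in Cd8 and Socs3 in innate-like cells. With no such filter, 25.6%, 33.2%, 13.8% and 16.2% of genes passed 2-fold in the Cd4 Foxp3-negative, Foxp3-positive, Cd8 and innate-like gates, and against these shares the counts of 1 and 2 of 9 in Cd8 and innate-like cells do not stand out. The Foxp3-positive count changed with the cells used: with gates and counts at 3800 UMIs 2 genes passed, Stat5b lower (-1.39) and Stat3 higher (1.25), and without cells holding other-type markers 4 passed, with Stat5a added (-1.05). Their median log2 ratio was 0.12, -0.59, 0.21 and 0.02 in the Cd4 Foxp3-negative, Foxp3-positive, Cd8 and innate-like gates, beside 0.10, 0.04, -0.01 and 0.02 over all genes. Ratios with an interval away from 0 were found for 6 genes in Cd4 Foxp3-negative cells (4 higher, 2 lower), where 44.9% of all genes were higher and 26.5% lower by this rule. In Cd8 cells 5 were higher and 1 lower, against 25.8% and 27.9% of all genes. In the smaller gates the same rule gave 4 lower genes in Foxp3-positive cells (16% of all genes lower and 17.9% higher) and 2 higher and 1 lower in innate-like cells (14.6% and 11.7%).

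**Figure D1:**
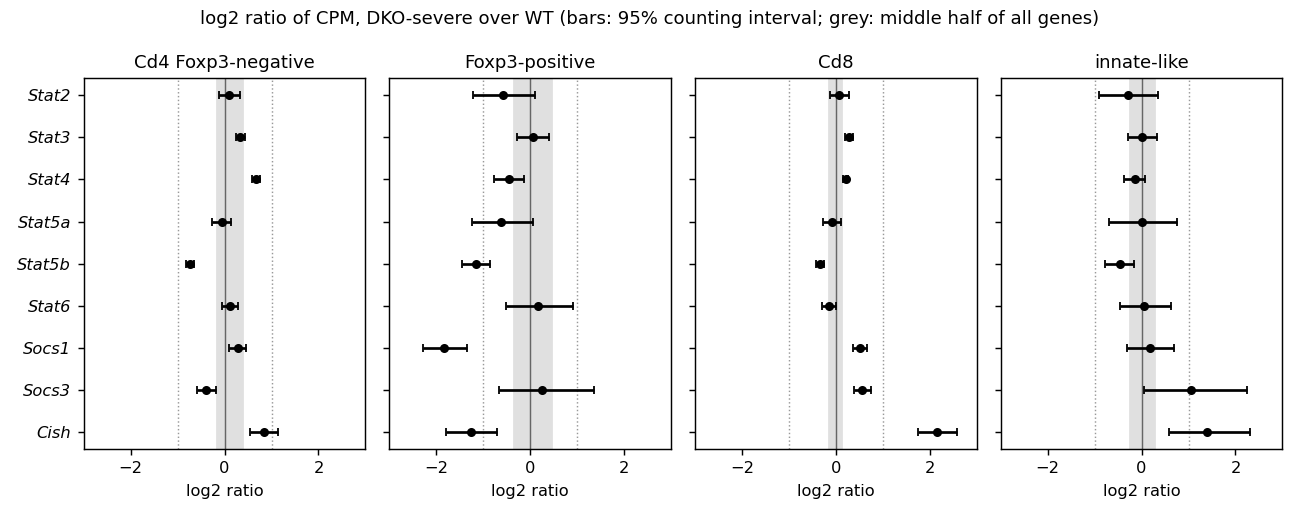
log2 ratio of CPM, DKO-severe over WT, of the 9 genes in each gate, with bars for the 95% counting interval, dotted lines at 2-fold and a grey band for the interquartile range of all genes. Stat5b lies left of 0 in all 4 panels, and Cish lies right of 0 in the Cd4 Foxp3-negative, Cd8 and innate-like panels and left of 0 among Foxp3-positive cells.

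Stat5b, with Stat5a the carrier of IL-2, IL-7 and IL-15 signals, had a level of 213 CPM in WT against 128 CPM in DKO-severe Cd4 Foxp3-negative cells, 255 and 114 CPM in Foxp3-positive cells, 142 and 113 CPM in Cd8 cells, and 168 and 122 CPM in innate-like cells. The WT levels ran from 142 to 255 CPM and the DKO-severe levels from 113 to 128 CPM, so the gates lay closer together in the DKO-severe mouse. The log2 ratios were -0.73 (interval -0.81 to -0.65), -1.16 (-1.45 to -0.86), -0.33 (-0.42 to -0.25) and -0.47 (-0.77 to -0.16), in the same order. In WT cells the order of gates was Foxp3-positive, Cd4 Foxp3-negative, innate-like and Cd8, with intervals apart only between the second and the third. In DKO-severe cells no 2 gates that were neighbours in the order had intervals apart. A log2 ratio below that of Stat5b was found for 5.21%, 4.1%, 8.38% and 11.8% of all genes in the Cd4 Foxp3-negative, Foxp3-positive, Cd8 and innate-like gates.

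Stat5b was also found in fewer DKO-severe cells at equal depth. The share of Cd4 Foxp3-negative cells with a Stat5b UMI was 49.5% in WT (604 of 1220 cells, exact binomial interval 46.7% to 52.4%) and 37.8% in DKO-severe cells (701 of 1853, 35.6% to 40.1%). In Cd8 cells it was 40.1% (38.4% to 41.9%) and 31.8% (29.5% to 34.1%). Without thinning, the shares in Cd4 Foxp3-negative cells were 61.9% and 59.6%, and those in Cd8 cells 55.0% and 56.5%, where the deeper DKO-severe cells have more chances to show a UMI. In B-marked cells of the DKO-severe mouse, which lacked CD3 transcripts (189 cells at 3800 UMIs), the share was 23.8%, below both T cell gates. These B-marked cells held UMIs of 2 or more B cell marker genes and none of the CD3 genes. Their median before thinning was 6474 UMIs, against 7863 in the DKO-severe Cd4 Foxp3-negative cells read at equal depth.

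Stat5a, the paralog, had intervals that included 0 in all 4 gates. It was 29.97 and 28.8 CPM in Cd4 Foxp3-negative cells, 52.3 and 34.1 CPM in Foxp3-positive cells (24 and 161 UMIs), 25.5 and 24.2 CPM in Cd8 cells, and 28.9 and 29.0 CPM in innate-like cells, with WT first. The share of Stat5b among UMIs of both paralogs, a measure that no CPM total enters, was 87.7% in WT (86.3% to 89.0%, 2374 UMIs) and 81.7% in DKO-severe Cd4 Foxp3-negative cells (80.4% to 82.9%, 3645 UMIs). In Cd8 cells it was 84.8% (83.6% to 86.0%) and 82.4% (80.7% to 83.9%), with overlapping intervals. In Foxp3-positive cells it was 83.0% and 77%, and in innate-like cells 85.3% and 80.7%, also with overlapping intervals.

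Stat4, which carries IL-12 signals toward interferon-γ production, was 175 CPM in WT against 278 CPM in DKO-severe Cd4 Foxp3-negative cells, a log2 ratio of 0.67 (0.59 to 0.74). In Cd8 cells it was 273 and 316 CPM (0.21, 0.16 to 0.27). In Foxp3-positive cells it was 205 and 149 CPM (-0.46, -0.77 to -0.13), and in innate-like cells 289 and 261 CPM, with an interval that included 0. In Foxp3-positive cells the ratio was -0.64 (-1.21 to -0.04) with gates and counts at 3800 UMIs, and -0.50 (-0.94 to -0.03) with gating on the full counts. A second draw at 3800 UMIs gave -0.50 (-1.06 to 0.08) and thinning to 5000 UMIs -0.28 (-0.93 to 0.44), with intervals that included 0. Stat4 was thus higher in DKO-severe cells in the 2 large gates and, at full depth, lower among Foxp3-positive cells. Cd4 Foxp3-negative cells had the lowest WT level of the 4 gates, with an interval overlapping that of Foxp3-positive cells, and the second highest DKO-severe level, after Cd8 cells. At equal depth, 44.0% of WT against 57.8% of DKO-severe Cd4 Foxp3-negative cells held a Stat4 UMI (50.6% and 73.0% without thinning), and 54.2% and 62.1% of Cd8 cells, with intervals apart in both gates. B-marked DKO-severe cells were at 26.5%.

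Stat3, the main carrier of IL-6, IL-10 and IL-21 signals, was 125 and 157 CPM in Cd4 Foxp3-negative cells (0.33, 0.24 to 0.42) and 101 and 123 CPM in Cd8 cells (0.28, 0.19 to 0.37). In Foxp3-positive cells it was 172 and 179 CPM, and in innate-like cells 146 and 147 CPM, both within counting error. With gates and counts at 3800 UMIs, however, Stat3 in Foxp3-positive cells was 105 and 251 CPM (25 and 84 cells, 1.25, 0.30 to 2.37), with a UMI in 28% (12.1% to 49.4%) and 55.95% (44.7% to 66.8%) of cells, while a second draw gave -0.23 and gating on the full counts 0.08. The 2 large gates thus showed a small shift of similar size. Equal-depth shares of cells with a Stat3 UMI were 33.4% and 44.3% in Cd4 Foxp3-negative cells and 29.9% and 35.8% in Cd8 cells, with intervals apart in both gates. Of the B-marked DKO-severe cells 38.1% held a Stat3 UMI, inside the range of the T cell gates, so the presence of Stat3 did not separate T cells from B-marked cells.

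Stat2, the partner in the interferon-stimulated complex of type I interferon, ran from 21.2 to 52.3 CPM over the 8 combinations of gate and genotype, with log2 ratios between -0.59 and 0.10. Stat6, which carries IL-4 and IL-13 signals, ran from 37.3 to 52.1 CPM, with log2 ratios between -0.14 and 0.16. When innate-like cells that also held Cd4 or Cd8 transcripts were left out, the Stat2 ratio there was -1.54. Every interval of these genes in the 4 gates included 0, and the order of the 4 gates for Stat6 was the same in both genotypes, with no neighbours apart.

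**Figure D2:**
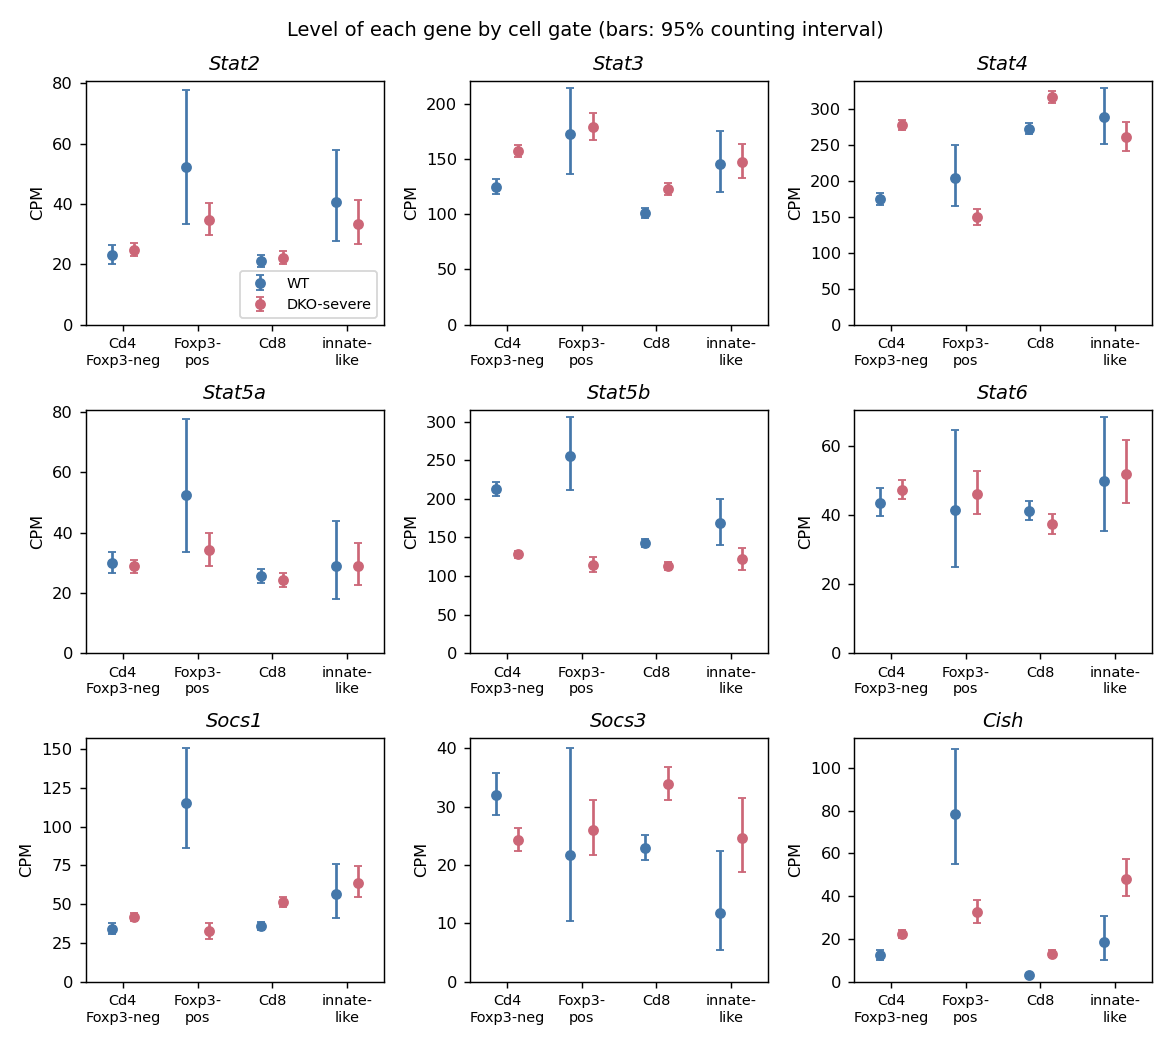
Level (CPM, linear axis from 0) of each of the 9 genes in WT (blue) and DKO-severe (red) cells of the 4 gates, with bars for the exact 95% Poisson interval of the sum. For Socs1 and Cish the WT Foxp3-positive point stands above every other point of its panel, while the DKO-severe Foxp3-positive point lies among the others.

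Among the inhibitors, Cish, which dampens IL-2 receptor and T cell receptor signals and is induced by STAT5, varied most between gates. In WT cells it was 78.4 CPM in the Foxp3-positive gate, 18.4 CPM in innate-like, 12.4 CPM in Cd4 Foxp3-negative and 2.95 CPM in Cd8 cells, a range of 26.6-fold. In DKO-severe cells the order began with innate-like cells at 48.1 CPM, then Foxp3-positive cells at 32.6 CPM, Cd4 Foxp3-negative cells at 22.1 CPM and Cd8 cells at 13.1 CPM, with intervals apart at each step and a range of 3.66-fold. In WT cells the intervals overlapped between the innate-like and the Cd4 Foxp3-negative gate. The log2 ratio was 2.15 (1.74 to 2.58) in Cd8 cells, from 62 UMIs in WT against 217 in DKO-severe cells. It was 1.39 (0.59 to 2.30) in innate-like cells, from 14 and 121 UMIs, and 0.84 (0.55 to 1.14) in Cd4 Foxp3-negative cells. In innate-like cells 1 WT cell held 35.7% of the WT Cish UMIs, and with the top cell of each genotype left out the log2 ratio was 1.92.

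At equal depth a Cish UMI was present in 2.87% of WT (2.01% to 3.97%) against 7.29% of DKO-severe (6.14% to 8.57%) Cd4 Foxp3-negative cells, and in 1.12% (0.775% to 1.58%) and 4.86% (3.85% to 6.04%) of Cd8 cells. In innate-like cells it was 9.41% of 85 WT cells (4.15% to 17.7%) against 24.1% of 141 DKO-severe cells (17.3% to 32.0%), with intervals that just overlapped. Without thinning the Cd8 shares were 1.87% and 9.34%, and the innate-like shares 9.52% and 34.1%. Only 1 of 189 B-marked DKO-severe cells held a Cish UMI (0.529%), so every DKO-severe T cell gate stood above that share.

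Socs1, which blocks JAKs downstream of interferon-γ and of the IL-2 family, was 116 CPM in WT against 32.4 CPM in DKO-severe Foxp3-positive cells, from 53 and 153 UMIs, a log2 ratio of -1.83 (-2.29 to -1.35). In Cd8 cells it was 36.0 and 51.3 CPM (0.51, 0.37 to 0.66), in Cd4 Foxp3-negative cells 34.2 and 41.4 CPM (0.28, 0.10 to 0.46), and in innate-like cells 56.4 and 64.0 CPM, within counting error. Foxp3-positive cells thus had the highest Socs1 level of the 4 gates in WT, with an interval apart from the next, and the lowest in DKO-severe cells, also apart from its neighbour. A Socs1 UMI was present at equal depth in 12.5% of WT against 15.7% of DKO-severe Cd8 cells, with intervals apart, and in 11.4% and 14.1% of Cd4 Foxp3-negative cells, with overlapping intervals. The B-marked DKO-severe share was 5.82%.

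Cish in Foxp3-positive cells went the same way as Socs1, from 78.4 to 32.6 CPM (36 and 154 UMIs, -1.27, -1.80 to -0.70). The Cish and Socs1 values varied with the random draw and depth of thinning, and with whether gating came before or after it. Thinning to 3800 UMIs before gating kept 25 WT and 84 DKO-severe cells, and then Cish stood at 52.6 and 53.3 CPM (5 and 17 UMIs, log2 ratio 0.02) and Socs1 at 52.6 and 43.9 CPM (5 and 14 UMIs, -0.26), with intervals from -1.48 to 1.81 and from -1.82 to 1.56. In these cells a Cish UMI was present in 16% of WT (4.54% to 36.1%) and 16.7% of DKO-severe cells (9.42% to 26.4%), and a Socs1 UMI in 20% (6.83% to 40.7%) and 10.7% (5.02% to 19.4%), with overlapping intervals. With the gate set on the full counts and the thinned counts then summed over 55 and 324 cells, Cish was 95.7 and 37.4 CPM (-1.36, -2.14 to -0.52), Socs1 115 and 39.8 CPM (-1.53, -2.26 to -0.76) and Stat5b 258 and 124 CPM (-1.07, -1.52 to -0.59). In those same cells a Socs1 UMI was present in 29.1% of WT (17.6% to 42.9%) against 11.4% of DKO-severe cells (8.17% to 15.4%), a Cish UMI in 27.3% (16.1% to 41.0%) against 12.04% (8.70% to 16.09%), and a Stat5b UMI in 60% (45.9% to 73.0%) and 33.6% (28.5% to 39.1%). The intervals were apart for all 3 genes, for Cish only narrowly. Stat5b was lower also in the 25 and 84 cells, at 263 and 100.3 CPM (-1.39). A second draw at that depth (33 and 97 cells) gave -0.48 for Cish, -0.91 for Socs1 and -1.06 for Stat5b, and thinning to 5000 UMIs (22 and 131 cells) gave -1.11, -1.48 and -0.82.

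Because Il2ra, the high-affinity IL-2 receptor chain, was itself lower in these cells, Foxp3-positive cells with and without an Il2ra UMI were read apart, a split chosen after the data were seen. Among cells with Il2ra (48 WT and 179 DKO-severe), Socs1 was 125 and 40.3 CPM (-1.64, -2.14 to -1.11), Cish 87.9 and 45.4 CPM (-0.95, -1.52 to -0.35), and Stat5b 232 and 117 CPM (-0.99, -1.33 to -0.63). Cells without Il2ra numbered 16 and 152 and gave Socs1 at 71.7 and 21.6 CPM (-1.73, from 6 and 43 UMIs) and Stat5b at 359 and 110 CPM (-1.70). All 3 genes were lower in DKO-severe cells on each side of the split, with a Cish interval that included 0 in cells without Il2ra (3 and 30 UMIs). The split did not even out Il2ra or depth: in cells with Il2ra its level was still 599 and 281 CPM (-1.09, -1.31 to -0.87), and median UMIs were 5860 and 12460 in cells with Il2ra and 4758 and 10580 in cells without. The part of Il2ra in these differences was not tested.

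Socs3, the inhibitor of receptors that use the IL-6 signalling chain, differed in opposite directions in the large gates. It was 32.0 CPM in WT against 24.4 CPM in DKO-severe Cd4 Foxp3-negative cells (-0.39, -0.60 to -0.19), and 23.0 and 33.9 CPM in Cd8 cells (0.56, 0.39 to 0.74). In innate-like cells it was 11.8 and 24.6 CPM (1.06, 0.04 to 2.26), from 9 and 62 UMIs, and in Foxp3-positive cells 21.8 and 26.1 CPM, within counting error. Equal-depth shares of cells with a Socs3 UMI were 12.2% in WT and 8.47% in DKO-severe Cd4 Foxp3-negative cells, with intervals apart, but another random draw of the thinning gave 10.5% and 10.9% and the unthinned shares were 15.1% and 16.7%, so no direction is read from them. In Cd8 cells the shares were 8.65% and 10.5%, with overlapping intervals. In the DKO-severe mouse the Socs3 level was 30.8 CPM in 216 B-marked cells and 31.8 CPM in 155 cells with 50 or more granulocyte-marker UMIs, close to the 24.4 to 33.9 CPM of the T cell gates. Whether granulocyte transcripts, higher in all DKO-severe gates, had a part in the Cd8 and innate-like Socs3 values was not tested. Without the cells holding other-type markers the Cd8 and innate-like ratios were 0.64 and 0.83, beside 0.56 and 1.06 with them.

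**Figure D3:**
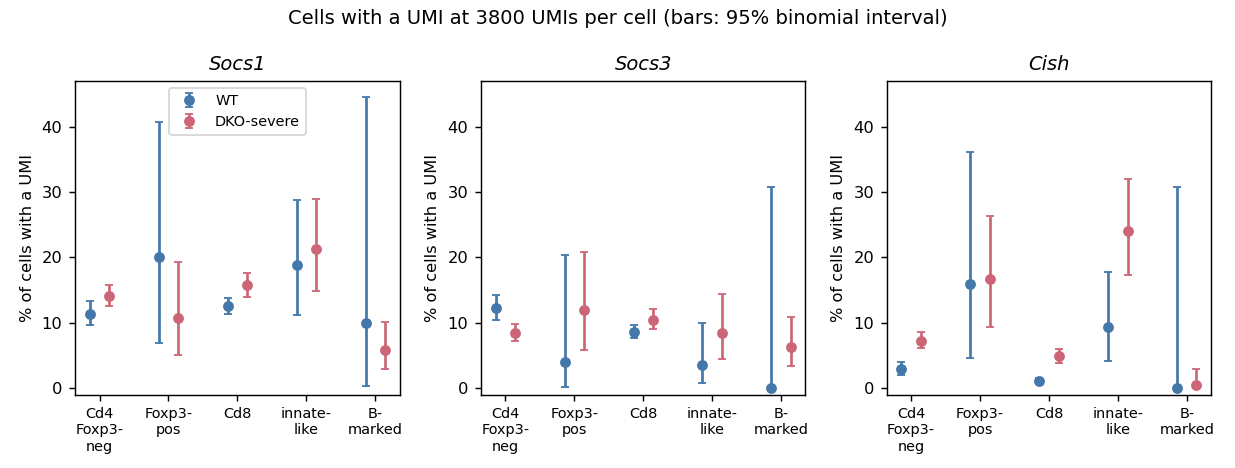
Percent of cells with a UMI of Socs1, Socs3 or Cish after thinning each cell to 3800 UMIs, in the 4 gates and in B-marked cells, for WT (blue) and DKO-severe (red), with exact 95% binomial intervals. Cish shows the clearest separation, with 1.12% against 4.86% of Cd8 cells and 2.87% against 7.29% of Cd4 Foxp3-negative cells, while its B-marked DKO-severe share is 0.529%.

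The composition of the gates differed between the mice, so the genes were also read within cell states set by other genes on thinned counts, with levels from the full counts of the same cells. Among Cd4 Foxp3-negative cells a helper state (a UMI of Pdcd1, Cxcr5 or Il21, genes of follicular helper cells) took 9.75% of WT against 47.2% of DKO-severe cells, and a resting state (none of these, and a transcript that marks naive cells, such as Ccr7) 64.3% and 17.4%. Among Cd8 cells an effector state (Ccl5, Gzma, Gzmb or Gzmk) took 31.6% and 70.0%, and a resting state 55.4% and 21.9%.

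Stat4 was higher in helper than in resting cells within each mouse, at 283 against 160.0 CPM in WT (log2 0.82, 0.59 to 1.05) and 344 against 204 CPM in DKO-severe cells (0.76, 0.63 to 0.89). Between genotypes, Stat4 differed by 0.35 (0.19 to 0.51) in resting, 0.28 (0.08 to 0.49) in helper and 0.59 (0.42 to 0.75) in the remaining Cd4 Foxp3-negative cells, each smaller than the 0.67 of the whole gate. In Cd8 cells Stat4 was likewise higher in effector than in resting cells, at 359 against 239 CPM in WT and 339 against 267 CPM in DKO-severe cells. In the Cd8 effector state itself Stat4 was slightly lower in DKO-severe cells (-0.08, -0.15 to -0.01), against 0.16 (0.05 to 0.27) in the resting state.

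Stat5b was lower in DKO-severe cells in each of the 3 Cd4 Foxp3-negative states: 213 and 172 CPM in resting cells (-0.31, -0.47 to -0.15), 188 and 125 CPM in helper cells (-0.58, -0.84 to -0.32), and 204 and 129 CPM in the others (-0.66, -0.84 to -0.49). Within the DKO-severe mouse helper cells were below resting cells (-0.46, -0.62 to -0.30), while in WT the interval of that contrast included 0 (-0.18, -0.45 to 0.08). In Cd8 cells Stat5b was 154 and 132 CPM in the resting state (-0.23, -0.39 to -0.07) and 135 and 103 CPM in the effector state (-0.39, -0.51 to -0.26). The direction was thus shared by resting and activated cells of both lineages, while in the remaining Cd8 cells the interval included 0 (124 and 120 CPM, -0.05).

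Of the 9 genes, Cish alone passed 2-fold within a state: in resting and in the remaining Cd4 Foxp3-negative cells and in Cd8 effector cells, with 0 of 9 past it in helper, resting Cd8 and remaining Cd8 cells. Among all genes at a mean of 20 CPM or more, the shares higher and lower by that fold were 5.45% and 1.76% in resting, 7.55% and 3.85% in helper and 6.04% and 2.2% in remaining Cd4 Foxp3-negative cells. In Cd8 cells they were 1.52% and 0.683% in effector, 0.588% and 0.467% in resting and 1.28% and 0.513% in remaining cells. Cish was under that mean in resting Cd4 Foxp3-negative cells (6.29 and 22.4 CPM) and in Cd8 effector cells (2.75 and 15.2 CPM). The shares of those 2 states thus leave Cish out.

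The Cish pattern differed in form between the lineages. In Cd4 Foxp3-negative cells the largest ratio was in the resting state, at 6.29 and 22.4 CPM (29 and 62 UMIs, 1.83, 1.18 to 2.52). In the remaining cells it was 12.2 and 29.9 CPM (1.30, 0.68 to 1.98). In helper cells it was 15.2 and 20.4 CPM (11 and 175 UMIs), with an interval that included 0. WT helper cells were above WT resting cells (1.27, 0.12 to 2.32), whereas DKO-severe helper and resting cells were within counting error of each other (-0.14, -0.56 to 0.31). In Cd8 cells the ratio lay in the effector state, at 2.75 and 15.2 CPM (19 and 171 UMIs, 2.47, 1.79 to 3.24). Resting Cd8 cells had 2.79 and 3.42 CPM (31 and 11 UMIs), with an interval that included 0. Within the DKO-severe mouse effector cells were above resting cells by 2.16 (1.28 to 3.19), and in WT the same contrast was -0.02 (-0.93 to 0.85).

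Socs3 in resting Cd4 Foxp3-negative cells was 35.3 and 38.0 CPM, within counting error, and in helper cells 30.4 and 19.9 CPM, with an interval just reaching past 0 (-0.61, -1.25 to 0.10). In the remaining cells it was 27.4 and 24.8 CPM (-0.14, -0.59 to 0.33). Within the DKO-severe mouse helper cells were below resting cells by 0.93 on the log2 scale (-0.93, -1.29 to -0.56). In Cd8 cells both Socs3 (0.67 resting, 0.62 effector) and Socs1 (0.61 resting, 0.62 effector) were higher in DKO-severe cells in either state, with intervals away from 0. Socs1 in resting Cd4 Foxp3-negative cells was 34.7 and 46.3 CPM (0.42, 0.07 to 0.76), and Stat2, within counting error in the whole gate, was 19.7 and 30.4 CPM there (0.62, 0.18 to 1.07).

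**Figure D4:**
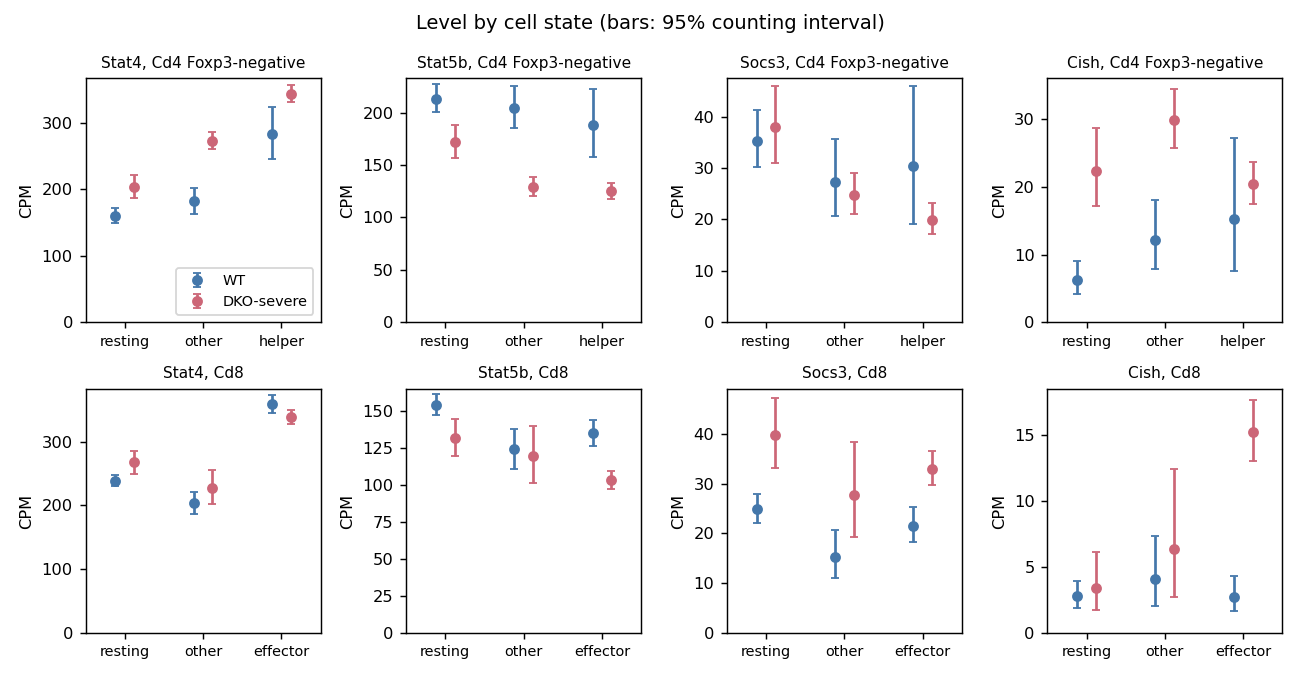
Level (CPM, linear axis from 0) of Stat4, Stat5b, Socs3 and Cish by cell state in the Cd4 Foxp3-negative gate (top) and the Cd8 gate (bottom), WT in blue and DKO-severe in red, with exact 95% Poisson intervals. Cish in DKO-severe Cd8 effector cells stands at 15.2 CPM against 2.75 CPM in WT effector cells, and Stat5b in DKO-severe cells lies below WT in each Cd4 Foxp3-negative state.

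Few cells held UMIs of more than 1 of the 3 inhibitors at this depth. At equal depth, UMIs of both Cish and Socs1 occurred in 20 of 1565 DKO-severe Cd8 cells (1.28%, 0.782% to 1.97%), beside 0.763% for the product of the 2 shares. They occurred in 10 of 141 DKO-severe innate-like cells (7.09%, 3.45% to 12.7%, product 5.13%). In Cd4 Foxp3-negative cells every pair lay above the product in both genotypes, such as Cish with Socs1 in DKO-severe cells (1.40%, 0.919% to 2.05%, product 1.03%). Some pairs in the other gates lay below it. Examples are Cish with Socs1 in WT Cd8 cells (3 cells, 0.102%, product 0.141%) and Cish with Socs3 in DKO-severe Cd8 cells (6 cells, 0.383%, product 0.509%). Both of these had intervals that included the product. Socs1 with Socs3 occurred in 33 of 1565 DKO-severe Cd8 cells (2.11%, 1.46% to 2.95%, product 1.65%) and in 0 of 141 DKO-severe innate-like cells. There 3 cells of 141 would be a share of 2.13%, and the exact binomial interval of the count of 0 reached 2.58%. A UMI of any of the 3 was present in 23.5% of WT against 26.0% of DKO-severe Cd4 Foxp3-negative cells, 20.5% and 27.5% of Cd8 cells, 27.1% and 44.7% of innate-like cells, and 36% and 30.95% of Foxp3-positive cells, with intervals apart in Cd8 cells and overlapping in the others. The Foxp3-positive gate was the one with the lower share in DKO-severe cells.

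Over 16 sums (8 non-overlapping gate and state groups in 2 genotypes, cells assigned at equal depth), the genes with patterns most like Cish were Rgs1, an inhibitor of chemokine receptor signals (Pearson r 0.96), and Mapkapk3, a stress-pathway kinase (0.95), which kept 0.95 and 0.94 when both Foxp3-positive sums were left out. For Stat3 they were Itpr1, a calcium release channel (0.93), and Crlf2, a cytokine receptor chain (0.93). Stat5b was most like Ccm2 (0.90) and Srebf2, a factor of sterol synthesis (0.89), and Stat4 most like Ptpn22, a phosphatase that restrains T cell receptor signals (0.81), and Apobec3 (0.77). Socs1 was most like Tor1aip2 (0.80) and Trim14 (0.80), and Socs3 most like Clk1 (0.82) and Ano6 (0.80). For Stat2 (Ccz1 and Phc3, 0.93 and 0.92), Stat5a (Ubl7 and 1110059E24Rik, 0.94 and 0.93) and Stat6 (Josd2, 0.97), r went down to between 0.56 and 0.82 without both Foxp3-positive sums, of which the WT one held 25 cells. The sums share libraries, depth and genotype, so these values describe the 16 sums and carry no test.

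Other genes of the pathway were read from 4 lists. Beside their counts stand the shares of all genes at a mean of 20 CPM or more that were higher and lower by 2-fold, 7.98% and 3.3% in Cd4 Foxp3-negative, 8% and 5.8% in Foxp3-positive, 1.71% and 0.872% in Cd8 and 5.01% and 1.65% in innate-like cells. Of the list genes named here and below, Il12rb1, Il12rb2, Pias3, Jak3, Ifng and Socs2 were under that mean in Cd4 Foxp3-negative or Cd8 cells. Pias4 was under it in innate-like cells, and without this filter the shares past 2-fold were larger. Of 4 JAK kinases, 1 passed 2-fold in Cd4 Foxp3-negative cells: Jak3, the kinase of the shared IL-2 family chain, at 10.9 and 22.6 CPM (1.05). None passed in the other gates. Of 14 cytokine receptor chains, 3 were higher by 2-fold in Cd4 Foxp3-negative cells, namely Il2rb (54.5 and 176 CPM, 1.69), Il10ra (11.9 and 46.1 CPM, 1.96) and Il12rb1 (2.66 and 6.97 CPM, 1.39), and 1 was lower, Il4ra (48.4 and 16.0 CPM, -1.60). In Cd8 cells 4 were higher, namely Il2rb (86.6 and 236 CPM, 1.44), Il10ra (10.95 and 35.8 CPM, 1.71), Il12rb1 (1.16) and Il12rb2 (3.86 and 11.5 CPM, 1.58), and 1 was lower, Il6st, the signalling chain of IL-6 (143 and 63.3 CPM, -1.18). Chains of 1 receptor did not go together: Il2rg, the partner of Il2rb, was 218 and 155 CPM in Cd4 Foxp3-negative cells (-0.49, -0.57 to -0.42) and 217 and 172 CPM in Cd8 cells (-0.34, -0.40 to -0.27). The median log2 ratio of the chains was 0.01 and 0.26 in these gates, beside 0.10 and -0.01 over all genes.

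In Foxp3-positive cells 1 of the 14 chains was higher, Il10ra (1.09), and 3 were lower, Il2ra (490.1 and 163 CPM, -1.59), Il4ra (-1.13) and Il6ra (187 and 59.1 CPM, -1.66), and none passed in innate-like cells. Values given here and below for the Foxp3-positive and innate-like gates, and those of Socs2, were chosen after they were seen. Of 13 other negative regulators, Pias3 was higher in Cd4 Foxp3-negative cells (5.42 and 11.4 CPM, 1.08), and Pias4 in innate-like cells from 9 and 60 UMIs (1.01, with an interval that included 0). Socs2, the remaining STAT5-induced inhibitor on the list, was lower in Foxp3-positive cells (50.1 and 11.02 CPM, 23 and 52 UMIs, -2.19, -2.92 to -1.41). It was higher in Cd8 (1 and 4.235 CPM, 21 and 70 UMIs, 2.08, 1.36 to 2.86) and innate-like cells (34.1 and 68.7 CPM, 1.01, 0.41 to 1.66). Its directions in these 3 gates were those of Cish.

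Of 8 genes commonly given as STAT targets, Ifng, the type 1 cytokine that STAT4 induces, was higher in Cd4 Foxp3-negative cells (7.36 and 23.1 CPM, 1.65) and in Cd8 cells (2.91 and 23.4 CPM, 3.01), and Bcl3 in Cd4 Foxp3-negative cells (18.4 and 36.9 CPM, 1.00). Bcl2, a survival gene downstream of IL-2 and IL-7, was 651 and 225 CPM in Foxp3-positive cells (-1.53) and 329 and 882 CPM in innate-like cells (1.42). Il18r1 was lower in both, at 137 and 34.5 CPM (-1.99) and 305 and 147 CPM (-1.05).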

How the data were processed

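TCRβ+ cells of both mice were hashed, pooled and sequenced by the authors with the 10x 3' v3.1 chemistry; per the labels Hashtag 1 marks WT and Hashtag 2 DKO cells. The deposited matrices, 1 per genotype, hold UMI counts made by the authors with Cell Ranger 7.1.0 and mm10, not normalized (45294779 UMIs in 7189 WT and 69692053 in 7161 DKO-severe barcodes, 0 shared). In each matrix its own hashtag led in all but 3 WT barcodes, which were left out. A cell needed 500 genes or more, with mitochondrial UMIs not above 10%. Scrublet (scanpy 1.11.5) made 0 automatic calls, so the highest 6% of scores per matrix were removed, leaving 6584 and 6359 cells, of which 688 and 476 were under 3800 UMIs and absent from thinned results. In ratios a sum under 3 UMIs was set to 3, and none was formed with both sums that low. The calculations were tested on simulated data.

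The 9 genes, lists and gates were chosen with earlier results of these data known. All 9 are named in every gate, with pathway genes past 2-fold and with 100 or more UMIs in the Cd4 Foxp3-negative or Cd8 gate, and for each gene the 2 most correlated of 6258 genes, of which 1 is not reported here. Alternatives to doublet removal, gates, cell weights, scaling, depth and pseudocount are reported at the end. No protein sequences were used here.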

Additional observations from a re-analysis of the deposited data

Results flagged for a closer look

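Of the 9 genes, 4 had log2 ratios of opposite sign in different gates, each with a counting interval away from 0; the difference between gates was not tested, since each genotype was 1 mouse. Cish was 0.84 in Cd4 Foxp3-negative, 2.15 in Cd8 and 1.39 in innate-like cells against -1.27 in Foxp3-positive cells. Socs1 was 0.28 in Cd4 Foxp3-negative and 0.51 in Cd8 cells against -1.83 in Foxp3-positive cells. Stat4 was 0.67 in Cd4 Foxp3-negative and 0.21 in Cd8 cells against -0.46 in Foxp3-positive cells. Socs3 was -0.39 in Cd4 Foxp3-negative cells against 0.56 in Cd8 and 1.06 in innate-like cells. Within resting, helper and remaining Cd4 Foxp3-negative cells the Socs3 ratios were 0.10, -0.61 and -0.14, each with an interval that included 0. The Foxp3-positive values of Cish and Socs1 rest on 36 and 53 WT UMIs, and that of Stat4 had an interval that included 0 when cells were thinned to 5000 UMIs.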

How the results depend on the processing

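Over 12 alternatives, Stat5b was lower in DKO-severe cells in every run in each gate, with log2 ratios from -0.89 to -0.54 in Cd4 Foxp3-negative, -1.39 to -1.10 in Foxp3-positive, -0.38 to -0.29 in Cd8 and -0.78 to -0.25 in innate-like cells. Outside those 12, Stat5b in Foxp3-positive cells was -1.06 with a second draw at 3800 UMIs and -0.82 (-1.46 to -0.12) at 5000 UMIs, the latter under 2-fold. Cish reversed in Foxp3-positive cells when gates and counts were both taken at 3800 UMIs (log2 ratio 0.0171, 25 WT cells), though a second draw gave -0.48. In the other 11 alternatives Cish was lower. Among Cd4 Foxp3-negative cells 1 gene, Cish, passed 2-fold in place of 0 without cells holding other-type markers (1.12), at 3800 UMIs (1.67) and with gates of 2 or more UMIs (1.11). In innate-like cells 1 gene, Cish, passed in place of 2, with Socs3 under the threshold, without cells holding other-type markers (0.83), with doublets kept (0.91), with 12% of doublet scores removed (0.76), with gates of 2 or more UMIs (0.61), with immunoglobulin, haemoglobin, mitochondrial and ribosomal genes out of the total (0.99) and with a pseudocount of 5 CPM (0.82). That pseudocount brought Cish in Cd8 cells to 1.19. Centring on the median of all genes moved ratios in Cd4 Foxp3-negative cells by 0.10. Without the CPM filter 25.6%, 33.2%, 13.8% and 16.2% of genes passed 2-fold in the Cd4 Foxp3-negative, Foxp3-positive, Cd8 and innate-like gates. In Foxp3-positive cells 2 to 4 genes passed 2-fold. The Foxp3-positive and innate-like gates have few WT cells (64 and 105). With cells in more than 1 gate separated, Stat2 in innate-like cells moved from -0.29 to -1.54, and 3 genes passed there. No paired analysis was possible because each genotype is 1 mouse and the columns carry no replicate numbers.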
